A study of Mus musculus with 10 samples.

Results

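Tumour necrosis factor (TNF), the lymphotoxins and their receptors were examined as 7 genes, the ligand genes Tnf, Lta and Ltb and the receptor genes Tnfrsf1a, Tnfrsf1b, Ltbr and Tnfrsf14. They were chosen by gene symbol and make up 7 of the 22329 genes in the deposited table. B16F10 cells, an established mouse melanoma line, were grown as tumours under the skin of C57BL6/J mice. Each tumour was injected once with 80 µg mRNA in total and was collected 7 days later. The 5 control tumours (libraries 1 to 5) received mRNA for luciferase. The 5 cytokine tumours (libraries 6 to 10) received 20 µg each of 4 mRNAs, which encode a mouse single chain IL-12, IL-15sushi, GM-CSF and IFNalpha. None of the 7 genes was among the injected mRNAs. The comparison asks which of them differed in level between cytokine and control tumours.

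TNF is made as a membrane protein, mainly by activated macrophages and lymphocytes, and can be cut from the cell surface as a soluble trimer. It acts through TNFR1, the product of Tnfrsf1a, which is found on most cell types and carries a death domain, and through TNFR2, the product of Tnfrsf1b, which has none and is found mainly on leukocytes and endothelial cells. Lymphotoxin alpha (Lta) is secreted and binds both TNF receptors, while lymphotoxin beta (Ltb) holds lymphotoxin alpha at the surface of lymphocytes and binds the lymphotoxin beta receptor (Ltbr) of stromal, epithelial and myeloid cells. HVEM, the product of Tnfrsf14, binds the ligand LIGHT and the lymphocyte receptors BTLA and CD160. In the mouse, Ltb, Tnf and Lta are immediate neighbours on chromosome 17 in that order among protein-coding genes, and Ltbr and Tnfrsf1a lie on chromosome 6 with Scnn1a between them (RefSeq, GRCm38.p6).

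The values are TPM, a relative abundance of transcripts, which is corrected for transcript length and scaled to the same total in each library, so the sequencing depth is unknown. Between 11513 and 12984 genes had a TPM of at least 1. In bulk tumours, fewer cells of a type and less RNA per cell cannot be told apart. Markers of several, but not all, leukocyte types differed between the groups. Summed over 8 T cell genes the level was 0.610 to 24.7 TPM in control and 38.9 to 2106 TPM in cytokine tumours, and summed over 8 macrophage and monocyte genes it was 123 to 357 and 510 to 6166 TPM. No gene of either list was at 0 throughout a group. The sums of 5 B cell genes overlapped, at 1.26 to 4.83 and 2.41 to 18.8 TPM. So did those of 5 dendritic cell genes, at 4.40 to 18.3 and 15.4 to 80.4 TPM. The sums of natural killer cell and of neutrophil genes did not overlap. The sum of 8 melanoma genes was 41.9 TPM in cytokine library 7 and otherwise between 2604 and 16831 TPM. Mitochondrial genes took 16.2% to 27.9% of the TPM in control and 4.44% to 19.2% in cytokine tumours. Across genes, which are not independent replicates, the profile of cytokine library 10 had a mean r of 0.930 with the control libraries and of 0.811 with the other cytokine libraries. The part of these differences in the results was not tested.

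Tnf, Ltb and Tnfrsf14 rose in the cytokine tumours and no member fell. Of the 7 genes, 6 reached 1 TPM in 5 or more libraries and were tested with limma on log2(TPM + 1), with p-values adjusted over all 12497 genes tested. Lta, with 3 such libraries, was not. The 3 members that rose compare with 7.41% of all tested genes that rose, and the 0 that fell with 3.02%. Tnf and Ltb reached 1 TPM in 3 control and 5 cytokine tumours, and Tnfrsf1b in 4 and 5. These genes would not have passed the filter on the control tumours alone. The others tested reached it in all 5 tumours of each group. The count therefore describes the 6 and not the family. Tnf was the only one of the 6 whose groups did not overlap. Among all tested genes, cytokine values lay above every control value in 5.45% and below every control value in 3.78%. Without library 10, 4 of the 6 members were higher (13.2% of all tested genes), and without libraries 6 and 7 together 0 were (0.152%).

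**Figure D1:**
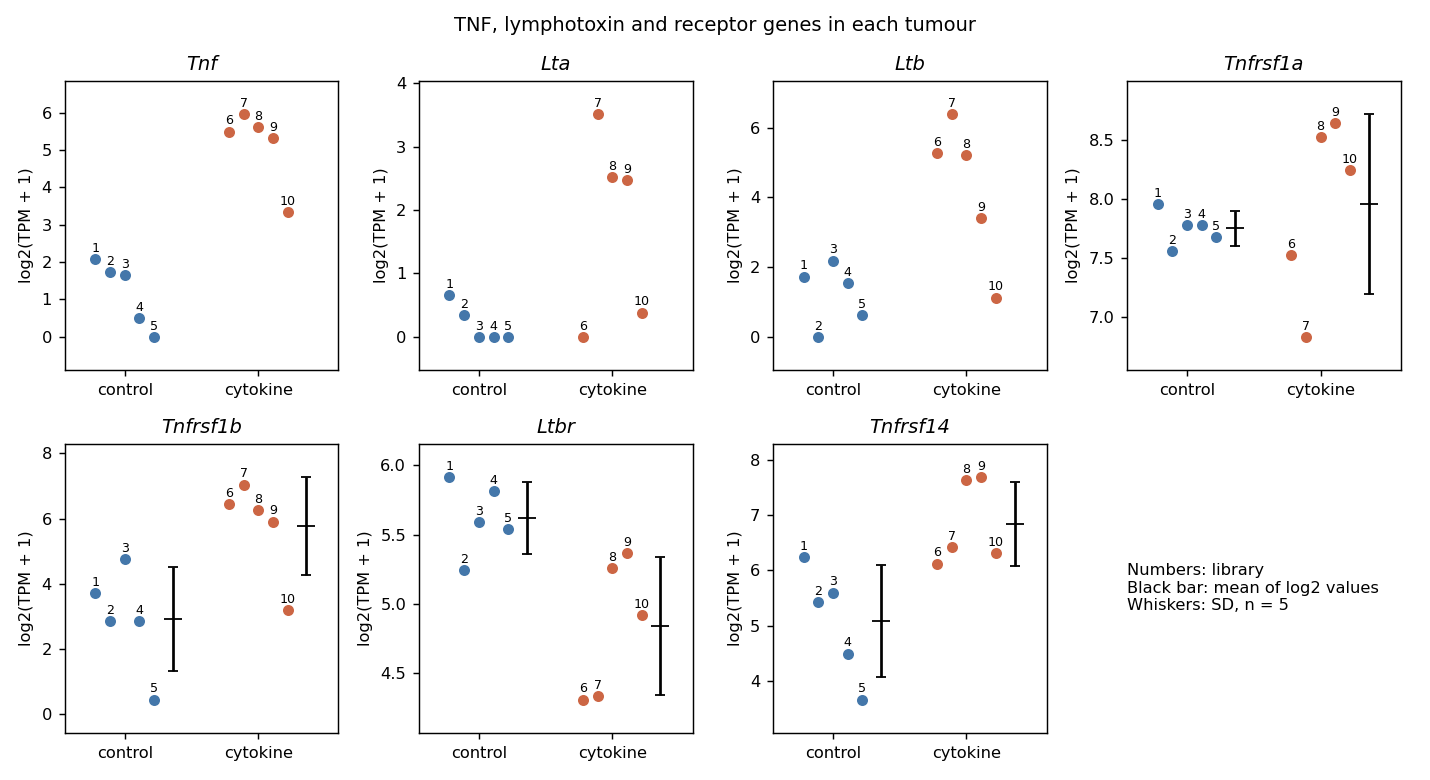
Level of each of the 7 genes in every tumour, as log2(TPM + 1) on the vertical axis (scale differs between panels), with control tumours in blue, cytokine tumours in red and library numbers beside the points; black bars are means and whiskers SD (n = 5), left out for the 3 ligands because they include values listed at 0. Tnf is the gene whose groups are fully apart, while library 10 lies among the controls for Ltb and Tnfrsf1b.

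The promoters of the genes that rose, and of Tnfrsf1b and Ltbr for comparison, are shown. Those of Lta and Tnfrsf1a were searched but are not printed. Each window is the 250 bases before the RefSeq start on GRCm38.p6, written 5′ to 3′ on the gene's strand. Capitals mark matches on either strand to the 4 motifs searched, which were the NF-kappaB consensus, the core of the interferon-stimulated response element (GAAA, 2 free bases and GAAA again), the GAS element bound by STAT factors (TTCNNNGAA) and the AP-1 element (TGANTCA).
Tnf, chr17:35202008-35202257, minus strand: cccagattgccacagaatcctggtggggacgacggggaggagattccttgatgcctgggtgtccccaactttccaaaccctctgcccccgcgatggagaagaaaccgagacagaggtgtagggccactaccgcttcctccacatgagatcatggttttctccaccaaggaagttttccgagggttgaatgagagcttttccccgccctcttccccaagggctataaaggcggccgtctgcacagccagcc
Ltb, chr17:35194257-35194506, plus strand: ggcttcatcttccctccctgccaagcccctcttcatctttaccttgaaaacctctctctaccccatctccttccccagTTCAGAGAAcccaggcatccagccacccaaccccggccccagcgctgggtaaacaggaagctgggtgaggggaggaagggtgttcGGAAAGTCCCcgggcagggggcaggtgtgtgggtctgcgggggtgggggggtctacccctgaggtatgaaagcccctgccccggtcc
Tnfrsf14, chr4:154928078-154928327, minus strand: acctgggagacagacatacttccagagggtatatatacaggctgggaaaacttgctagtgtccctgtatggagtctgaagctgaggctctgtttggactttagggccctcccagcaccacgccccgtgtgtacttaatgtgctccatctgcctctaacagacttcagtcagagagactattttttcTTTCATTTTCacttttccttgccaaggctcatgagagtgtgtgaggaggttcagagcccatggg
Tnfrsf1b, chr4:145246871-145247120, minus strand: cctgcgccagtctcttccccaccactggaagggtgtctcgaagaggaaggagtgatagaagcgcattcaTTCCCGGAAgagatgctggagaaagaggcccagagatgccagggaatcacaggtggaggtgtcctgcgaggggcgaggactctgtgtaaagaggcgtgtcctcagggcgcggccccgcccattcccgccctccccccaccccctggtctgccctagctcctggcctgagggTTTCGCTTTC
Ltbr, chr6:125313886-125314135, minus strand: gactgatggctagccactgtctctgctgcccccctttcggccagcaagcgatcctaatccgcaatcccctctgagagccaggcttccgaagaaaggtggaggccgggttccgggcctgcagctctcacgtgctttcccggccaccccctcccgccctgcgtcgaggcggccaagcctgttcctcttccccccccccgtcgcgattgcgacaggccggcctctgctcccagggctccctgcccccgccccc
Ltb held an NF-kappaB match, GGAAAGTCCC, which begins 87 bases before the start, and a GAS match that begins 172 bases before it. Tnfrsf1b held a GAS match and, over the 10 bases next to the start, the response element core TTTCGCTTTC. Tnfrsf14 held that core as TTTCATTTTC, beginning 64 bases before the start. No match to the 4 motifs lay in the windows of Tnf and Ltbr, which says only that these letters are not in those 250 bases. Of 32851 mouse promoter windows of this length, 3.90% held the NF-kappaB consensus, 2.98% the response element core, 7.02% the GAS element and 6.75% the AP-1 element. Among the 7 members' windows the counts were 1, 2, 4 and 0. The GAS element was also in windows not printed here. In Lta it began 152 and 16 bases before the start, and in Tnfrsf1a 244 bases before it. Tnfrsf1a was not called as changed and Lta was not tested with limma, so a match did not go with a rise in every member. The printed matches do not overlap each other. A match is a stretch of letters and does not show that a factor binds there.

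Among the ligands, Tnf rose in all 5 cytokine tumours above the control range. It was at 3.21, 2.30, 2.16, 0.410 and 0 TPM in control libraries 1 to 5 and at 43.9, 60.8, 47.7, 38.6 and 9.07 TPM in cytokine libraries 6 to 10. Every cytokine tumour lay above every control tumour, with library 10 nearest to the controls. The median was 2.16 TPM in control and 43.9 TPM in cytokine tumours. On the log2(TPM + 1) scale, which understates the change of low genes, Tnf rose by 3.95 ± 0.55 (SE; limma adjusted p = 0.00798). The adjusted p stayed between 0.000336 and 0.0363 with any 1 library left out. Without libraries 6 and 7 together the difference was 3.56, with an adjusted p of 0.0628.

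Ltb, the membrane anchor of the lymphotoxin heterotrimer, also rose. It was at 2.31, 0, 3.56, 1.90 and 0.529 TPM in the control tumours and at 37.5, 82.2, 35.8, 9.60 and 1.18 TPM in libraries 6 to 10. In 4 of the 5 cytokine tumours it lay above all controls, while library 10 lay within the control range, so the groups overlapped. The rise was 3.06 ± 0.86 on the log2 scale (SE; limma adjusted p = 0.0451). This call did not hold without any 1 of libraries 1 to 9 (adjusted p of 0.0633 to 0.113), and without library 10 the rise was 3.85 with an adjusted p of 0.00178. It also missed the threshold with a pseudocount of 0.1 (adjusted p = 0.0635) and with no filter on low values (adjusted p = 0.0749).

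Lta was the lowest of the 7 genes in both groups. It was listed at 0.576, 0.269, 0, 0 and 0 TPM in the control tumours and at 0, 10.4, 4.71, 4.55 and 0.303 TPM in libraries 6 to 10. Libraries 7, 8 and 9 were above all controls, and library 6, which had high Tnf and Ltb, was listed at 0. In each library, 2 to 7 of 90 reference and ribosomal protein genes were also listed at 0. These 90 were picked by symbol and some may not be used by every cell. Whether a 0 here is a failed estimate therefore cannot be told from them. An exact 2-sided permutation test of log2(TPM + 1) gave a difference of 1.57 and p = 0.0873, where the smallest p that 5 against 5 tumours allow is 0.00794. Without library 6 the difference was 2.02 (exact permutation p = 0.0159), and without library 10 it was 1.92 (exact permutation p = 0.0476).

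Among the receptors only Tnfrsf14 passed the threshold, and the estimated differences were not all of the same sign. Tnfrsf1a, the gene of TNFR1, was the most abundant member in both groups by mean level and had the smallest difference. It was at 247, 187, 219, 218 and 203 TPM in the control tumours and at 183, 113, 366, 399 and 302 TPM in libraries 6 to 10. The control values were close together (215 ± 22.3 TPM, SD, n = 5), and the cytokine values lay on both sides of them (272 ± 122 TPM), with libraries 6 and 7 below and libraries 8, 9 and 10 above every control. The difference was 0.20 ± 0.33 on the log2 scale (SE; limma adjusted p = 0.688). It was -0.0024 after rescaling without mitochondrial genes, so its direction depends on the scaling, and 0.65 with library quality weights (limma adjusted p = 0.0467).

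Tnfrsf1b, the gene of TNFR2, missed the threshold by little. It was at 12.1, 6.28, 26.2, 6.22 and 0.365 TPM in the control tumours and at 86.3, 131, 75.9, 59.0 and 8.10 TPM in libraries 6 to 10. Libraries 6 to 9 lay above all controls and library 10 lay among them. The means were 10.2 ± 9.84 and 72.0 ± 44.5 TPM (SD, n = 5 each), and the control mean was 6.24 TPM without library 3. The difference was 2.84 ± 0.84 on the log2 scale (SE; limma adjusted p = 0.0519). The adjusted p was 0.0462 without control library 3, the highest control, and 0.00582 without library 10, while it ranged from 0.0684 to 0.123 without any 1 of the others. It was also under the threshold with a pseudocount of 5 (0.0396), median-ratio scaling (0.0458), quantile normalization (0.0385) and library quality weights (0.0135).

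Tnfrsf14, the gene of HVEM, rose. It was at 74.6, 41.8, 47.4, 21.6 and 11.7 TPM in the control tumours and at 68.9, 84.9, 198, 206 and 78.4 TPM in libraries 6 to 10. Control library 1 lay above cytokine library 6, and the other control tumours lay below all cytokine tumours. The means were 39.4 ± 24.5 and 127 ± 68.6 TPM (SD, n = 5 each), a rise of 1.76 ± 0.50 on the log2 scale (SE; limma adjusted p = 0.0454). The call did not hold without any 1 of libraries 2 to 9 (adjusted p of 0.0608 to 0.108), nor after rescaling without mitochondrial genes (1.56, adjusted p = 0.0516), with a pseudocount of 0.1 (adjusted p = 0.0537), with no filter on low values (0.0709) or with no trend in the variance (0.0507). The highest values, in libraries 8 and 9, were not in the tumours with the most Tnf or Ltb. Library 7 led for both of those genes.

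Ltbr, the lymphotoxin beta receptor gene, was the member whose cytokine values were mostly lower. It was at 59.4, 36.9, 47.1, 55.3 and 45.6 TPM in the control tumours and at 18.8, 19.2, 37.3, 40.2 and 29.3 TPM in libraries 6 to 10. Libraries 6, 7 and 10 lay below all controls, and libraries 8 and 9 lay within the control range. The means were 48.9 ± 8.79 and 29.0 ± 9.93 TPM (SD, n = 5 each), a difference of -0.78 ± 0.26 on the log2 scale (SE; limma adjusted p = 0.0762). The median difference of all tested genes was -0.18 on the same scale. Ltbr passed the threshold as lower under 3 other scalings of the table. The adjusted p was 0.0483 once the 50 most abundant genes were left out of the total, 0.0373 without mitochondrial genes and 0.0497 after quantile normalization, while median-ratio scaling gave 0.0749.

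**Figure D2:**
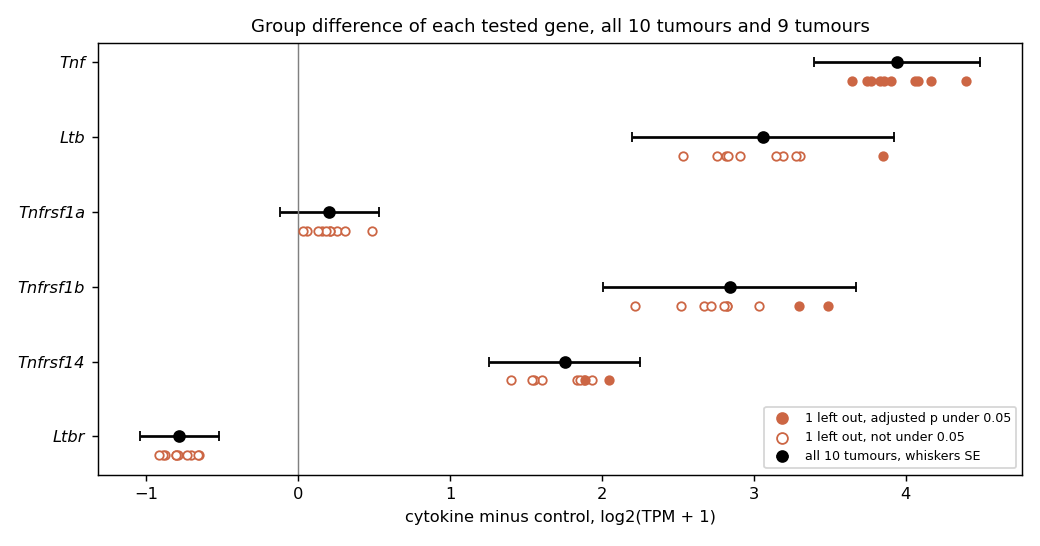
Difference between cytokine and control tumours in log2(TPM + 1) for the 6 tested genes (horizontal axis); black points and whiskers are the estimate and SE from all 10 tumours, and red points are the estimates with each tumour left out in turn, filled where the limma adjusted p is under 0.05. Tnf is filled in all 10 of its fits, Ltb in 1, and Tnfrsf1b and Tnfrsf14 in 2 each.

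In level per transcript length, Tnfrsf1a stood above the other members in every tumour except library 7, where Tnfrsf1b was higher. In the control tumours it was followed by Ltbr and Tnfrsf14, whose ranges overlapped, then by Tnfrsf1b, Ltb, Tnf and Lta. Ltb and Tnf were at nearly equal low levels there, and Ltb was the higher of the pair in 3 of 5 control tumours. In the cytokine tumours the order of the means was Tnfrsf1a, Tnfrsf14, Tnfrsf1b, Tnf, Ltb, Ltbr and Lta, so Ltbr went from the second to the sixth place. Neighbours in that order overlapped in range, except that Ltbr lay above Lta in all 5 tumours.

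The balance between members was compared for 3 ratios, each taken as log2 of the TPM + 1 values. Tnfrsf1b was at 4.90%, 3.36%, 12.0%, 2.85% and 0.180% of the Tnfrsf1a level in the control tumours and at 47.2%, 116%, 20.7%, 14.8% and 2.69% in libraries 6 to 10. Libraries 6 to 9 exceeded every control, and library 10 fell among them. The log2 ratio of Tnfrsf1b to Tnfrsf1a was 2.64 higher in cytokine tumours (exact 2-sided permutation p = 0.0635, adjusted over the 3 ratios p = 0.0952). Without library 10 it was 3.36 higher (exact permutation, adjusted p = 0.0238). The log2 ratio of Tnf to Lta was 2.37 higher in cytokine tumours (exact permutation p = 0.00794, the smallest possible here, adjusted p = 0.0238). Lta was listed at 0 in 3 control tumours and in library 6, which had the highest ratio, and both genes were low in controls, so the control ratio depends on the pseudocount and the difference is not separate from that of Tnf. With a pseudocount of 0.1 in place of 1 this ratio differed by 2.07 with an adjusted p of 0.214 (exact permutation). The ratio of Lta to Ltb differed by -1.49 (exact permutation p = 0.151, adjusted p = 0.151).

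The members were then set against leukocyte genes of the same tumour. The mean log2(TPM + 1) of 12 genes shared by leukocytes (Ptprc, Cd53, Cd48 and 9 others) was 3.17 to 4.81 in control and 5.33 to 8.13 in cytokine tumours. Of the 12, 11 rose. Arhgdib, at 589 ± 129 and 880 ± 224 TPM (SD, n = 5), did not (0.57, limma adjusted p = 0.142). Its smaller difference lowers that of the mean, and no mean without it was tried. With this mean subtracted from every gene, Tnf was 1.36 ± 0.52 higher in cytokine tumours on the log2 scale (SE; limma adjusted p = 0.0187). All 5 cytokine tumours lay above all 5 controls, at -2.18 to -1.42 against -3.95 to -2.73. Tnf was the 1 member of 6 called higher, against 0.416% of all tested genes. Without control library 4 the value was 1.17 (adjusted p = 0.0691), and without library 9 it was 1.26 (adjusted p = 0.0544). With a pseudocount of 5 it was 0.38 (adjusted p = 0.384), and with Ptprc alone as the reference it was 0.40 (adjusted p = 0.599). Over all alternatives it ranged from 0.38 to 2.37, so its size depends on these settings.

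For the other 5 tested members the values relative to the leukocyte genes were 0.48 or less. Relative to them, Ltb differed by 0.48 ± 0.64 (SE; limma adjusted p = 0.476) and Tnfrsf1b by 0.26 ± 0.60 (adjusted p = 0.685). Tnfrsf14 differed by -0.83 ± 0.64 (adjusted p = 0.223). Tnfrsf1a, at -2.38 ± 0.73 (adjusted p = 0.00525), and Ltbr, at -3.36 ± 0.67 (adjusted p = 0.00103), were called lower, which 90.9% of all tested genes were. Without libraries 6 and 7 together Tnfrsf1a was at -1.33 (adjusted p = 0.0641), and with library quality weights Ltb was at 1.10 (adjusted p = 0.0112). A relative value shows unequal change and does not say which of its parts moved.

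**Figure D3:**
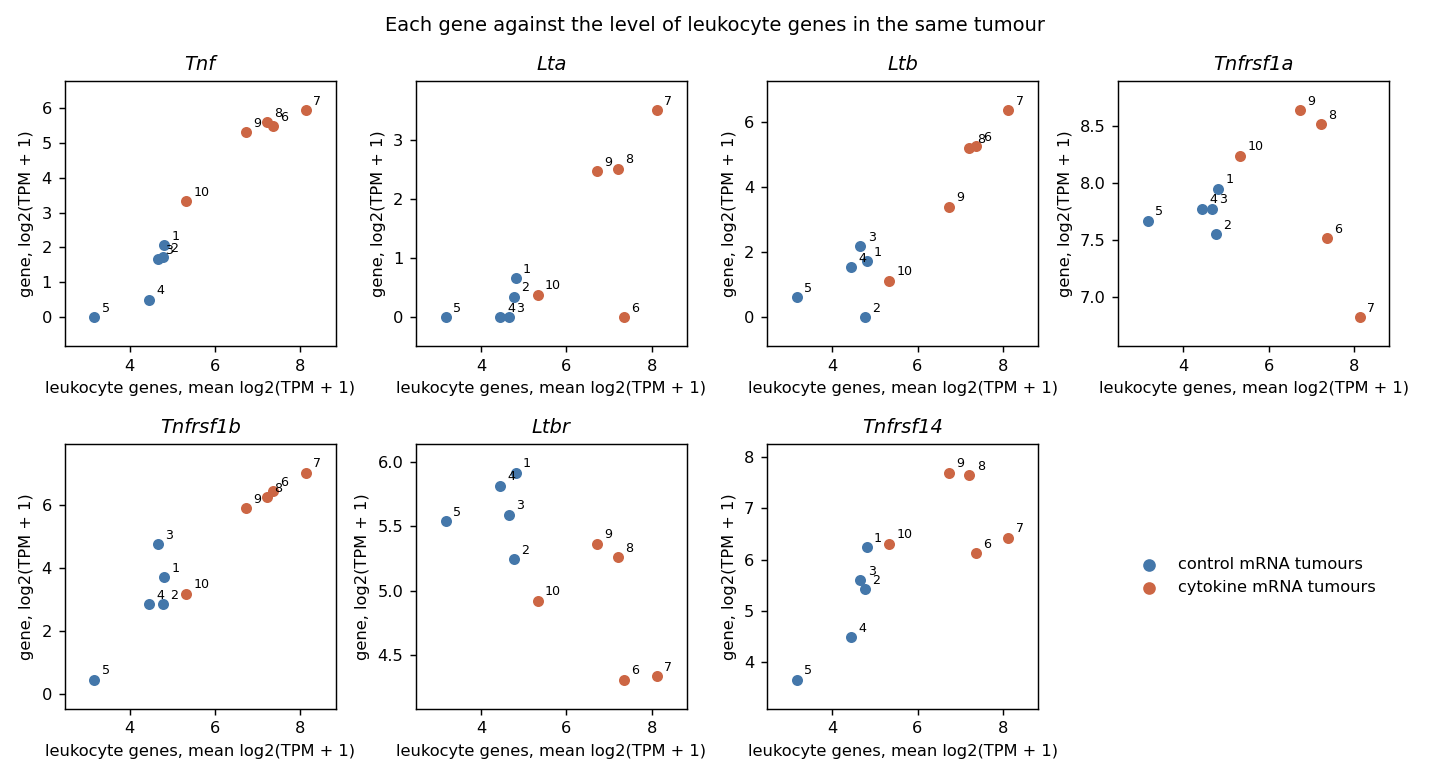
Level of each gene (vertical axis, log2(TPM + 1), scale differs between panels) against the mean log2(TPM + 1) of 12 leukocyte genes in the same tumour (horizontal axis), with control tumours in blue, cytokine tumours in red and library numbers beside the points. Tnf, Ltb and Tnfrsf1b are highest in library 7, which has the highest leukocyte mean (8.13), while Tnfrsf1a is lowest there and Ltbr is low in libraries 6 and 7.

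For each tested member, the 3 genes with the most similar profile were found as those with the smallest mean absolute difference of centred log2(TPM + 1) over the 10 tumours. Predicted genes, pseudogenes and the genes of T cell receptors and immunoglobulins were left out, so none of them could be named. For Tnf the nearest genes were Bst1, Ifng and Slamf8, at 0.35, 0.35 and 0.36, against a median of 2.08 over the tested genes that remained. Ifng encodes interferon gamma and Slamf8 a surface receptor of myeloid cells. For Ltb they were the lymphocyte transcription factor gene Ikzf3, the lymphocyte GTPase gene Gimap4 and Susd3 (0.37, 0.42 and 0.48). Those of Tnfrsf1b were Mpeg1, a pore-forming protein gene of macrophages, the thromboxane synthase gene Tbxas1 and the monocyte chemokine receptor gene Ccr2 (0.32, 0.33 and 0.33). Those of Tnfrsf14 were the complement gene C4b, the peptide-loading gene Tapbpl and Sp110 (0.22, 0.25 and 0.26). Ltbr was nearest to Snrnp27, Pik3ip1 and Setmar (0.11, 0.14 and 0.14), and Tnfrsf1a to Lrrk2, Grina and Rfesd (0.15, 0.16 and 0.16). The likeness includes the difference between the groups.

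Other ligands of the family also rose. Of 15 further TNF superfamily ligands, 6 could be tested, 4 rose and none fell, where 7.41% of all tested genes rose. Their median difference was 2.07 on the log2 scale against -0.18 for all genes tested. Fasl, the ligand of the death receptor Fas, was at 0.522, 0, 0, 0.401 and 0 TPM in control tumours and at 16.7, 12.4, 13.4, 4.95 and 2.27 TPM in libraries 6 to 10. It rose by 2.99 ± 0.46 (SE; limma adjusted p = 0.00961), but it reached 1 TPM in cytokine tumours alone, so it was tested only through the group in which it was high. Tnfsf10, the gene of TRAIL, rose by 2.54 ± 0.43, Tnfsf13b, the gene of the B cell factor BAFF, from 1.16 ± 1.03 to 7.46 ± 1.19 TPM (SD, n = 5), and Tnfsf12, the gene of TWEAK, from 12.7 ± 1.86 to 64.2 ± 32.5 TPM. The calls of Fasl, Tnfsf10 and Tnfsf13b held with any 1 library left out, and that of Tnfsf12 did not hold without library 6 or 8 (adjusted p up to 0.0574).

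Of 22 other receptors of the family, 16 were tested, 4 rose and none fell, with a median of 1.10, where 7.41% of all tested genes rose. Cd40, an activating receptor of antigen-presenting cells, rose by 3.36 ± 0.78 on the log2 scale (SE; limma adjusted p = 0.0236). Fas rose by 2.77 ± 0.66, Cd27, a co-stimulatory receptor of T cells, from 2.52 ± 1.73 to 27.4 ± 24.5 TPM (17.8 TPM without library 7; SD, n = 5), and Tnfrsf21, the gene of death receptor 6, from 2.37 ± 0.876 to 10.5 ± 5.36 TPM. Each of the 4 calls failed 4 to 8 of 10 times when single libraries were left out, with adjusted p up to 0.0943, and without library 10 the count was 8. It was 0 without any 1 of libraries 2, 6, 8 and 9, and 1 without library 4 or 5. Of all tested genes, 13.2% rose without library 10 and 2.57% to 6.23% without any other single library. These shares also stand beside the left-out counts of the lists below. Of the partners of HVEM, Btla was the one tested, and it rose by 1.54 ± 0.39 (adjusted p = 0.0321). Like Fasl, it was under 1 TPM in all control tumours and entered the test through the cytokine tumours alone. That call was lost without any 1 of libraries 2, 4, 5, 6, 7 and 8 (adjusted p of 0.0627 to 0.0809).

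Of 21 genes of the TNF receptor complex and its adaptors, 20 were tested, 4 rose and none fell, with a median of 0.44, where 7.41% of all tested genes rose. The count was 7 without library 10, 3 without library 7, and 1 or 2 without any other single library. Traf1, an adaptor that is itself induced by NF-kappaB, rose from 2.54 ± 1.52 to 28.3 ± 21.7 TPM (SD, n = 5), and to 19.4 TPM without library 7. Birc3, the gene of the ubiquitin ligase cIAP2, rose from 7.80 ± 5.04 to 41.6 ± 23.1 TPM. Sharpin, a subunit of the linear ubiquitin ligase, rose from 154 ± 28.4 to 285 ± 72.3 TPM, and the kinase gene Ripk1 from 41.5 ± 4.45 to 69.5 ± 15.1 TPM. Tradd, the adaptor that binds the death domain of TNFR1, was at 18.4 and 18.0 TPM (limma adjusted p = 0.921), and Fadd at 20.0 and 15.3 TPM (adjusted p = 0.248). These 2 were named after their values were seen. The call of Traf1 held with any 1 library left out, while those of Birc3, Sharpin and Ripk1 failed 6, 8 and 8 of 10 times (adjusted p up to 0.0938).

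Of 8 genes of the noncanonical NF-kappaB arm below the lymphotoxin beta receptor, 2 rose and none fell, with a median of 0.48. The 2, against 7.41% of all tested genes, were Birc3 and Map3k14, the gene of the kinase NIK. Map3k14 rose from 9.34 ± 3.18 to 21.6 ± 5.67 TPM (SD, n = 5; limma adjusted p = 0.0354). The Map3k14 call was lost without any 1 of libraries 2 to 9 (adjusted p up to 0.0827), and without library 10 the count was 4. It was 0 without any 1 of libraries 2, 4, 5, 6, 8 and 9, and 1 without library 3 or 7. Of 11 lymphoid tissue genes known to lie downstream of lymphotoxin, 5 were tested and 3 rose, Icam1, Vcam1 and Tnfsf13b. Without library 10 the count was 5. The shares of all tested genes that rose were 7.41% and, without library 10, 13.2%. Icam1 and Vcam1 are also among the TNF-induced targets below, Tnfsf13b among the ligands and Birc3 in 2 other lists. The list counts are therefore not separate results. The adhesion gene Icam1 rose from 5.50 ± 3.76 to 38.4 ± 19.7 TPM and Vcam1 from 7.13 ± 4.61 to 42.7 ± 15.5 TPM. The lymphoid chemokine genes Ccl19 and Ccl21a and the sulfotransferase gene Chst4, named after their values were seen, were listed at 0 in all 10 libraries.

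Of 20 genes that TNF is known to induce through NF-kappaB, 17 were tested, 12 rose and none fell. Their median was 2.19, where 7.41% of all tested genes rose and the shared leukocyte genes had a median of 2.73. Relative to the leukocyte mean, Cxcl2 was at 1.55, Traf1 at 0.31, Icam1 at 0.06 and Vcam1 at 0.04 on the log2 scale. The other targets that rose had negative values there, such as Nfkbia at -0.32 and Sod2 at -1.19. Among the 12, Cxcl1 was under 1 TPM in all control tumours and entered the test through the cytokine tumours alone. The count was 6 without library 6, 7 without library 8, and 9 to 16 without any other single library. Cxcl2, a neutrophil chemokine gene, had the largest rise, 4.13 ± 0.63 on the log2 scale (SE; limma adjusted p = 0.00961), followed by Traf1, Icam1 and Vcam1. Of 9 deubiquitinases and feedback inhibitors of the pathway, 4 rose and none fell, beside the same 7.41% of all tested genes. Their median was 0.96. Of these 4, Nfkbia and Tnfaip3 are also among the TNF-induced targets. The count was 1 without library 6 and 2 without any 1 of libraries 2, 3, 5, 8 and 9. Nfkbia, the gene of the inhibitor IkappaB alpha, rose from 15.2 ± 2.99 to 92.2 ± 52.0 TPM and Tnfaip3, the gene of A20, from 5.49 ± 1.47 to 31.4 ± 14.9 TPM (SD, n = 5). Nfkbie rose from 7.90 ± 3.64 to 31.6 ± 21.1 TPM and Cyld from 32.4 ± 10.3 to 63.7 ± 5.13 TPM. The calls of Cxcl2 and Tnfaip3 held with any 1 library left out. Those of Icam1, Vcam1 and Nfkbia were each lost in 1 of the 10 fits (without library 8, 6 and 6; adjusted p up to 0.0521), and those of Cyld and Nfkbie in 6 and 9 (up to 0.113).

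Genes of TNF release and of Tnf mRNA control had medians near 0. Of 6 genes of TNF shedding, Rhbdf2 rose, from 10.7 ± 3.66 to 27.1 ± 9.88 TPM (SD, n = 5; limma adjusted p = 0.0331). It encodes iRhom2, which carries the sheddase ADAM17 to the surface. Adam17 itself, named after its values were seen, was at 98.8 and 114 TPM (adjusted p = 0.650). Of 11 genes that control TNF mRNA, 2 rose and 1 fell. Beside both lists, 7.41% of all tested genes rose and 3.02% fell. Zfp36, the gene of tristetraprolin, which marks Tnf mRNA for decay, rose from 30.9 ± 6.20 to 83.5 ± 33.7 TPM and Zfp36l2 from 43.4 ± 9.34 to 99.1 ± 42.7 TPM, while the RNA-binding protein gene Khsrp fell from 111 ± 12.1 to 50.1 ± 27.4 TPM. The medians were -0.01 and -0.07. Leaving out single libraries, the calls of Rhbdf2, Zfp36, Zfp36l2 and Khsrp failed 8, 5, 8 and 9 of 10 times (adjusted p up to 0.0905). Beside all of these lists, 11 of 12 shared leukocyte genes, 6 of 6 tested T cell genes and 8 of 8 macrophage and monocyte genes rose. Of 4 tested dendritic cell genes 2 rose, and the 1 tested B cell gene, Cd79a, did not (limma adjusted p = 0.961). The count of the 12 shared leukocyte genes was 7 without library 4, 4 without library 6, 5 without library 8, and 8 to 11 without any other single library. Without libraries 6 and 7 together no gene of the pathway lists was called, apart from 1 of the 12 leukocyte genes.

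**Figure D4:**
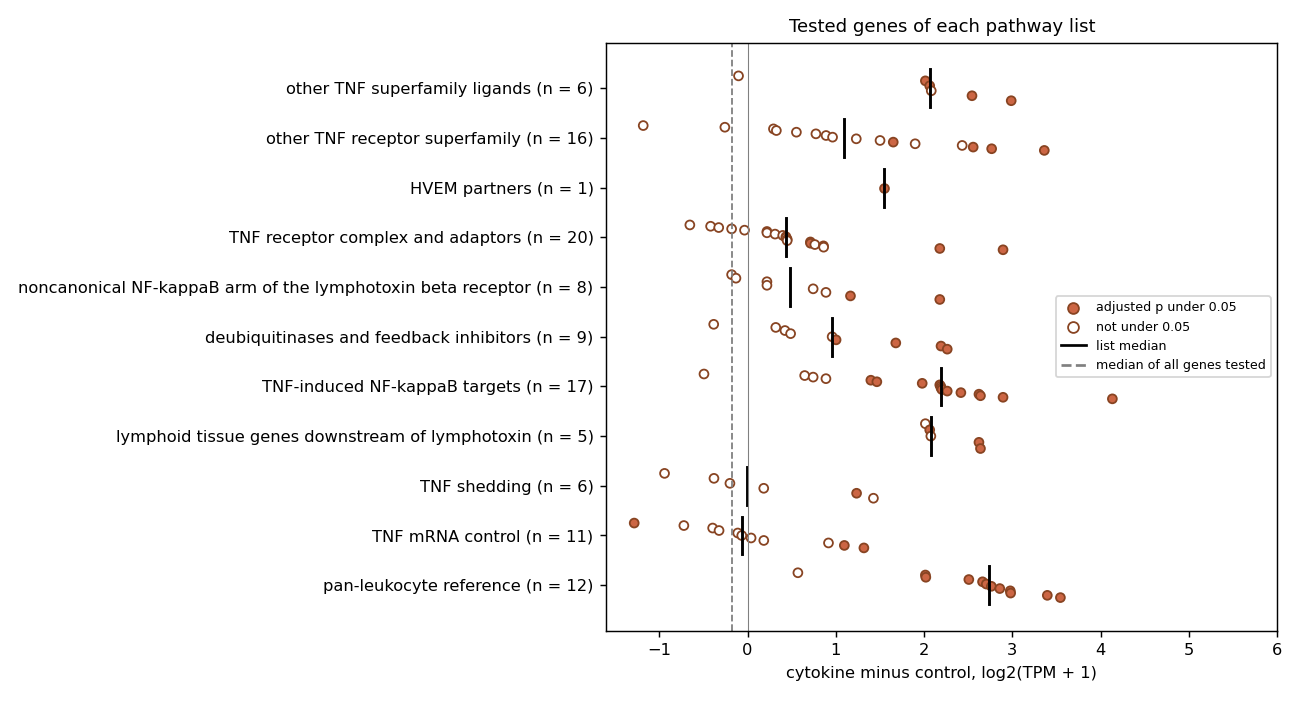
Difference between cytokine and control tumours in log2(TPM + 1) (horizontal axis) for each tested gene of the 10 pathway lists and of the 12 shared leukocyte genes (rows, with the number tested); filled points have a limma adjusted p under 0.05, black bars are list medians and the dashed line is the median of all genes tested (-0.18). The TNF-induced targets have the most filled points among the pathway lists, 12 of 17, and the medians of the shedding and mRNA control lists lie near 0. Fasl, Btla and Cxcl1 were tested through the cytokine tumours alone, and some genes stand in more than 1 row.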

How the data were processed

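Polyadenylated RNA of 10 tumours was measured with stranded NuGEN libraries, per the labels' protocols. The authors deposited 1 table of TPM values per gene symbol, with the same total in each column. STAR (version not stated) and GRCh38 are named in the submitters' processing notes. GRCh38 is a human build and the symbols are those of mouse genes, which leaves the build unclear. Annotation, counting program and filters were not stated there. TPM keep no depth, so counting error cannot be stated, and a rise of abundant genes lowers all others.

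Libraries were assigned to groups by title. No number is shared between groups, and no batch is given. The design states 5 mice per group, and 1 library is counted as 1 tumour. Genes that reached 1 TPM in 5 or more libraries entered the test on log2(TPM + 1) with limma 3.58.1 in R 4.3.3 (eBayes with trend, 2-sided, Benjamini-Hochberg over 12497 genes, called under 0.05). The code of the fit was run on simulated data with independent errors of equal spread in both groups. Such data lack the differences between whole libraries seen here, so the run does not bear on how firm the calls are. Single values and ratios were compared by exact permutation. Members and lists were chosen with earlier results of these data known. Some genes belong to more than 1 list and are counted in each. Named genes are the members, up to 4 called genes of each list with the largest change, and the 3 genes nearest to each member. Alternatives were other pseudocounts, filters, scalings, variance settings, a Ptprc reference and libraries left out. Promoters are from RefSeq, where all 7 symbols matched.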

Additional observations from a re-analysis of the deposited data

How the results depend on the processing

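The rise of Tnf passed the threshold in all alternatives except without libraries 6 and 7, with log2 values from 2.63 to 5.11. The calls of Ltb and Tnfrsf14 did not hold in 9 and 8 of the 10 fits that left out 1 library. With 1 library left out the count of members that rose ranged from 1 to 4 and that of changed genes from 367 to 3238 (1304 with all libraries). The count of members that rose was 1 with a pseudocount of 0.1 and 1 without a filter, 5 with library weights and 0 without libraries 6 and 7. The count of members that fell was 1 in place of 0 after rescaling without the 50 most abundant genes, without mitochondrial genes and after quantile normalization. Changed genes numbered 846 without a filter, 2769 with library weights, 20 without libraries 6 and 7, and 2607 without libraries 7 and 10, an alternative chosen after seeing the data. Of the changed genes 71.0% were higher, against 60.0% without the 50 most abundant genes, 47.8% without mitochondrial genes and 57.5% with library weights. The median difference of all genes, -0.18, was -0.03 after median-ratio scaling and -0.37 without mitochondrial genes.

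Relative to leukocyte genes, the count of members called higher (1) was 0 with a pseudocount of 5 and with Ptprc alone, 2 with library weights, and 0 to 1 with 1 library left out. The count called lower (2) was 1 without libraries 6 and 7. Differences that passed no threshold changed sign. Ltb was at -0.21 with a pseudocount of 5, -0.023 without libraries 6 and 7 and -0.48 with Ptprc alone. Tnfrsf1b was at -0.0082 with a pseudocount of 5, from -0.061 (without library 5) to 0.64 with 1 library left out, and at -0.70 with Ptprc alone. Tnfrsf14 was at 0.076 without libraries 6 and 7. Tnfrsf1a, unscaled by leukocyte genes, was at -0.0024 without mitochondrial genes. The ratio of Tnf to Lta differed by 2.07 with a pseudocount of 0.1, 1.97 without libraries 6 and 7 and 2.82 without libraries 7 and 10, none past the threshold. With 2 libraries left out few permutations remain, and the adjusted p could pass only if other ratios were also extreme. Those fits therefore cannot decide. With 1 library left out this ratio differed by 1.84 to 2.60, and that of Tnfrsf1b to Tnfrsf1a by 2.04 to 3.36. The cause was not tested. TPM give no depth, so what depth limits cannot be stated. No paired analysis was possible because the groups share no replicate number.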

Other observations

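Several ligands of the family, and Cd160, had too few libraries with a TPM of at least 1 to be tested, and their values belong to no comparison. Tnfsf14, the gene of the HVEM ligand LIGHT, was listed at 0.419, 0.182, 0.401, 0 and 0.680 TPM in control libraries 1 to 5 and at 1.52, 5.11, 1.51, 1.55 and 0.574 TPM in cytokine libraries 6 to 10. Cd160, the gene of another HVEM partner, was listed at 1.43, 0.341, 0, 0 and 0 TPM and at 0.428, 9.37, 2.81, 1.74 and 0.689 TPM. Cd40lg, the CD40 ligand gene of helper T cells, was listed at 0 in 4 control tumours and at 0.671 TPM in library 4, and at 6.33, 7.36, 5.38, 0.486 and 0 TPM in libraries 6 to 10. Tnfsf15 was listed at no more than 0.300 TPM in control tumours and at 1.31, 2.52, 2.17, 2.41 and 0.293 TPM in libraries 6 to 10. In each of these genes library 10 lay within the range of the control tumours. These genes were chosen after their values were seen. Not all untested ligands had such values. Tnfsf18 had a mean of 0.864 TPM in control and 0.309 TPM in cytokine tumours. The means were 0 and 0.231 TPM for Tnfsf4, and 0 and 0.140 TPM for Cd70.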
